A study of Mus musculus with 15 samples.

Results

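A set of 10 genes for secreted signals to blood and immune cells was followed in 4T1 cells, a mouse mammary carcinoma line: Csf1, Csf2, Csf3, Cxcl1, Cxcl2, Ccl2, Ccl7, Cx3cl1, Il6 and Lif. They were chosen by name, with earlier results of these data known, and all 10 were found among the 27179 gene identifiers of the count files. Of these, 7 had enough counts to be tested, among 12712 tested genes, and Cxcl2, Ccl7 and Il6 did not. RNA sequencing covered 5 populations with 3 biological replicates each, 15 libraries in all. The parental population is labelled wild type. The populations E1, E2, A and M are each labelled as expressing iRFP670, a near-infrared fluorescent protein, and each was grown from 1 cell of the parental line after transfection with the plasmid pNLS-iRFP670. The 4 clones were kept in the antibiotic G418, which was left out of the culture before RNA was taken. RNA from all populations was taken after 72 h of culture, near 80% confluency. Each clone is 1 isolate, so what is particular to that cell, to the transfection or to the G418 culture cannot be told apart.

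Colony-stimulating factors drive the growth and maturation of myeloid cells: Csf1 acts on macrophages, Csf2 on granulocytes and macrophages, and Csf3 on neutrophils. Chemokines steer cell movement, with the CXC ligands Cxcl1 and Cxcl2 drawing neutrophils through Cxcr2, the CC ligands Ccl2 and Ccl7 drawing monocytes through Ccr2, and Cx3cl1, which is made as a membrane-bound protein, binding Cx3cr1. Il6 and Lif signal through the shared receptor chain gp130, encoded by Il6st, to JAK kinases and STAT3. Many of these genes are switched on by the transcription factor NF-kB, and many of their mRNAs carry AU-rich elements in the 3′ UTR that shorten their life.

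Library totals ran from 20143111 to 36831801 counts, with 13173 to 14294 genes detected per library. The 6 most counted genes took 61.4% to 72.1% of a library, which left 6164768 to 14206491 counts for all others. Levels are given as CPM, counts scaled to a common library total after TMM normalization, in which 1 count was worth 0.0245 to 0.0520 CPM. Leaving the 6 genes out of the totals would raise every CPM 2.90 to 2.95 times. A mean under 0.5 CPM is called near zero. Epithelial markers were present, with a summed level of 384 to 892 CPM per library. The 16 leukocyte markers summed to at most 1.58 CPM in any library, with 8 of them at 0 throughout, including Cd3e, Itgam and Ly6g, and the 7 endothelial markers to at most 0.430 CPM. The fibroblast markers other than Pdgfra summed to at most 1.02 CPM, and Dcn, Lum and Thy1 had no count.

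The promoter sequences are shown because matches to an NF-kB motif are shared by members with very different levels. The motif searched was GGGNNTTTCC, on both strands of the 250 bases before the transcription start, in RefSeq sequences of the mouse build GRCm38.p6. Sequences were matched for 7 of the 10 genes, all but Csf3, Ccl2 and Ccl7. The motif was found in 4 of the 7, Csf1, Cxcl1, Cxcl2 and Il6, against 1.41% of 32851 windows of the same length from 27025 genes. Each line below gives the 160 bases before the start, 5′ to 3′ on the gene's strand, with the motif matches in capitals. The stretches lie at chr3:107760470-107760629 on the minus strand for Csf1, and on the plus strand at chr5:90891085-90891244 for Cxcl1, chr5:90903739-90903898 for Cxcl2 and chr5:30012954-30013113 for Il6.
Csf1: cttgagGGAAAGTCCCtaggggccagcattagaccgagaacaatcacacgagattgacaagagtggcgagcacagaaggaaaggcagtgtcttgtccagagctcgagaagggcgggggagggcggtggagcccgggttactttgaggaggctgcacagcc
Cxcl1: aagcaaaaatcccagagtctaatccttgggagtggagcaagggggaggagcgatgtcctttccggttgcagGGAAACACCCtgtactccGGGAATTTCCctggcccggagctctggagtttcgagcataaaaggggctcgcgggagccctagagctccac
Cxcl2: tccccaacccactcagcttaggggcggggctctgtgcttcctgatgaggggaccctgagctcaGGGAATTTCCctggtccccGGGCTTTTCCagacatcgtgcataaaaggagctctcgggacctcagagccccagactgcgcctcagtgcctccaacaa
Il6: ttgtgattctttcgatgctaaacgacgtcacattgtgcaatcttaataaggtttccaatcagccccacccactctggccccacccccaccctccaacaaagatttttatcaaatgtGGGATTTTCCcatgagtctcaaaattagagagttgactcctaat
Cxcl1 and Cxcl2 hold 2 matches each, within 97 bases of the start, and Il6 holds 1 at 44 to 35 bases before it. In Csf1 the single match lies farther out, 154 to 145 bases before the start. The AP-1 motif TGANTCA, searched in the same way, was found in Il6 and Lif, against 6.75% of windows, and TATAAA in 1 of the 7, Cx3cl1, against 12.4%. The TATAAA match of Cx3cl1 lies directly at the annotated start, 6 to 1 bases before it, and only these exact letters were searched. No match overlapped another. A match describes letters in a window and was not tested as a binding site.

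The 3′ UTR windows are shown because AU-rich repeats differ sharply between the members. The pentamer ATTTA, searched on the transcript strand with overlapping matches counted, was present in the 3′ UTR of all 10 genes, against 61.7% of 20581 genes in the GENCODE transcripts. The longer nonamer TTATTTATT, which contains the pentamer, was found in 5 of the 10, against 6.92% of genes: Csf2 and Cxcl2 had 4 each, Cxcl1 and Lif had 2 each and Cx3cl1 had 1. The 30-base windows with the most pentamers in Csf2, Cxcl1 and Cxcl2 are given with the pentamers in capitals.
Csf2: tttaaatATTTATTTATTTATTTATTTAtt
Cxcl1: gggtcctATTTATTTAtgtATTTATTTAtt
Cxcl2: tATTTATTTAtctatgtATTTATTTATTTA
Csf2 carried 28.4 pentamers per kb of 3′ UTR, Cxcl2 14.99, Il6 14.1, Cxcl1 11.8 and Csf3 8.97. Over all 3′ UTRs the rate was 1.94 per kb. Csf1, at 1.89, and Lif, at 2.20, were close to that rate, and Cx3cl1 was below it at 0.534. No relation of these rates to the levels was tested.

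**Figure D1:**
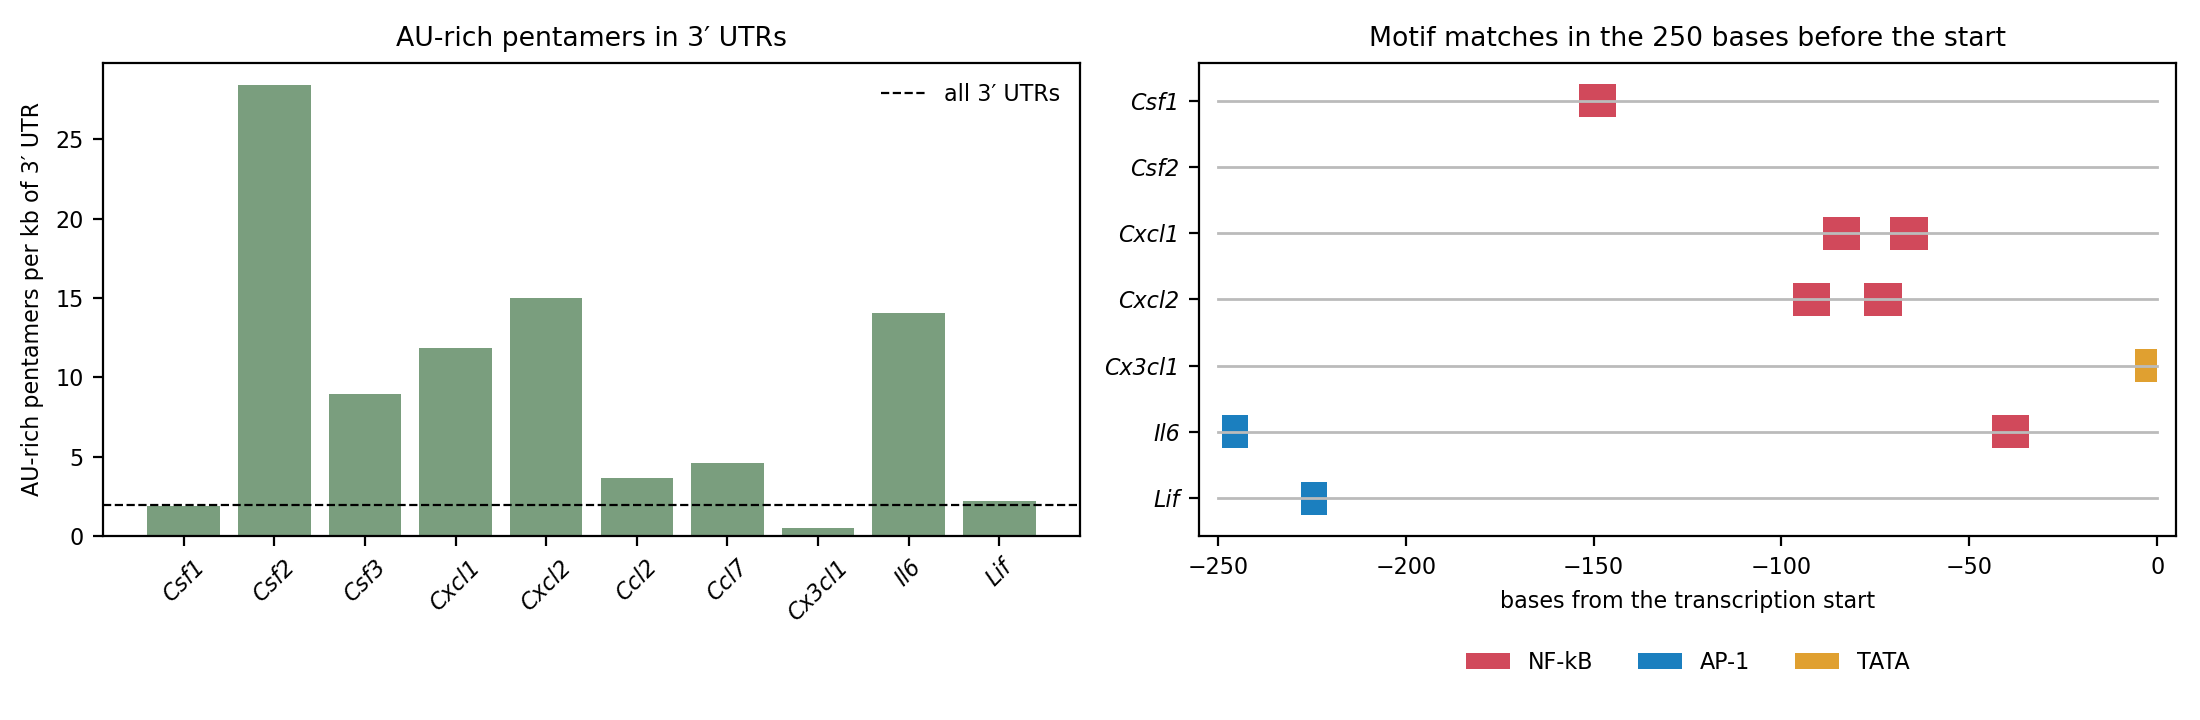
Left, ATTTA pentamers per kb of 3′ UTR for the 10 genes, with the rate over all 3′ UTRs as a dashed line at 1.94. Right, motif matches along the 250 bases before the start of the 7 genes with a sequence, in bases from the start. The NF-kB matches of Cxcl1 and Cxcl2 all lie within 97 bases of the start.

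Levels were compared between genes only per kb of merged exon, since the genes differ in length. On that scale Csf1 was first and Lif second in all 5 populations. Csf1 made up 58.5% to 65.5% of the summed level of the 10 genes, and Lif 13.9% to 21.3%. The third place differed: it went to Ccl2 in the parental population (9.89% of the sum), to Csf3 in E1, E2 and M, and to Cx3cl1 in A (8.83%). Near zero in all 5 populations were Cxcl2, Ccl7 and Il6. Ccl2 was near zero in the 4 clones and Csf2 in the parental population, while Csf1, Csf3, Cxcl1, Cx3cl1 and Lif were near zero in none. Csf2 was only just over the cutoff in M, E1 and E2, at means of 0.506, 0.595 and 0.650 CPM, with 1 M library at 0. The exon lengths include retained introns of the annotation, as in Cxcl1, where they cover 1875 of 1877 bases, so levels per length of such genes are low estimates.

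**Figure D2:**
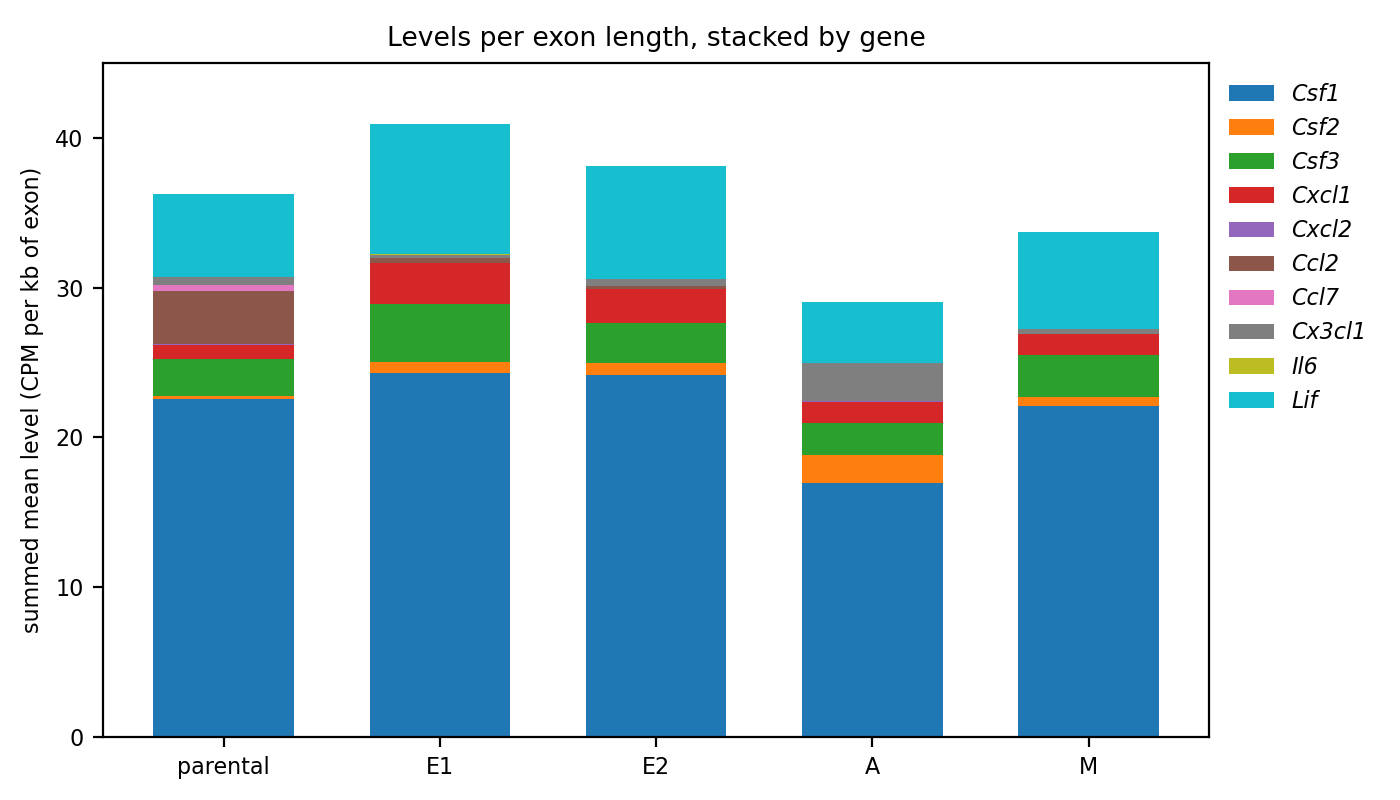
Mean level per kb of merged exon (CPM per kb, mean of 3 libraries) stacked by gene for each population. Csf1 is the largest block in every bar, the Ccl2 block is visible in the parental bar and the Cx3cl1 block in the A bar.

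**Figure D3:**
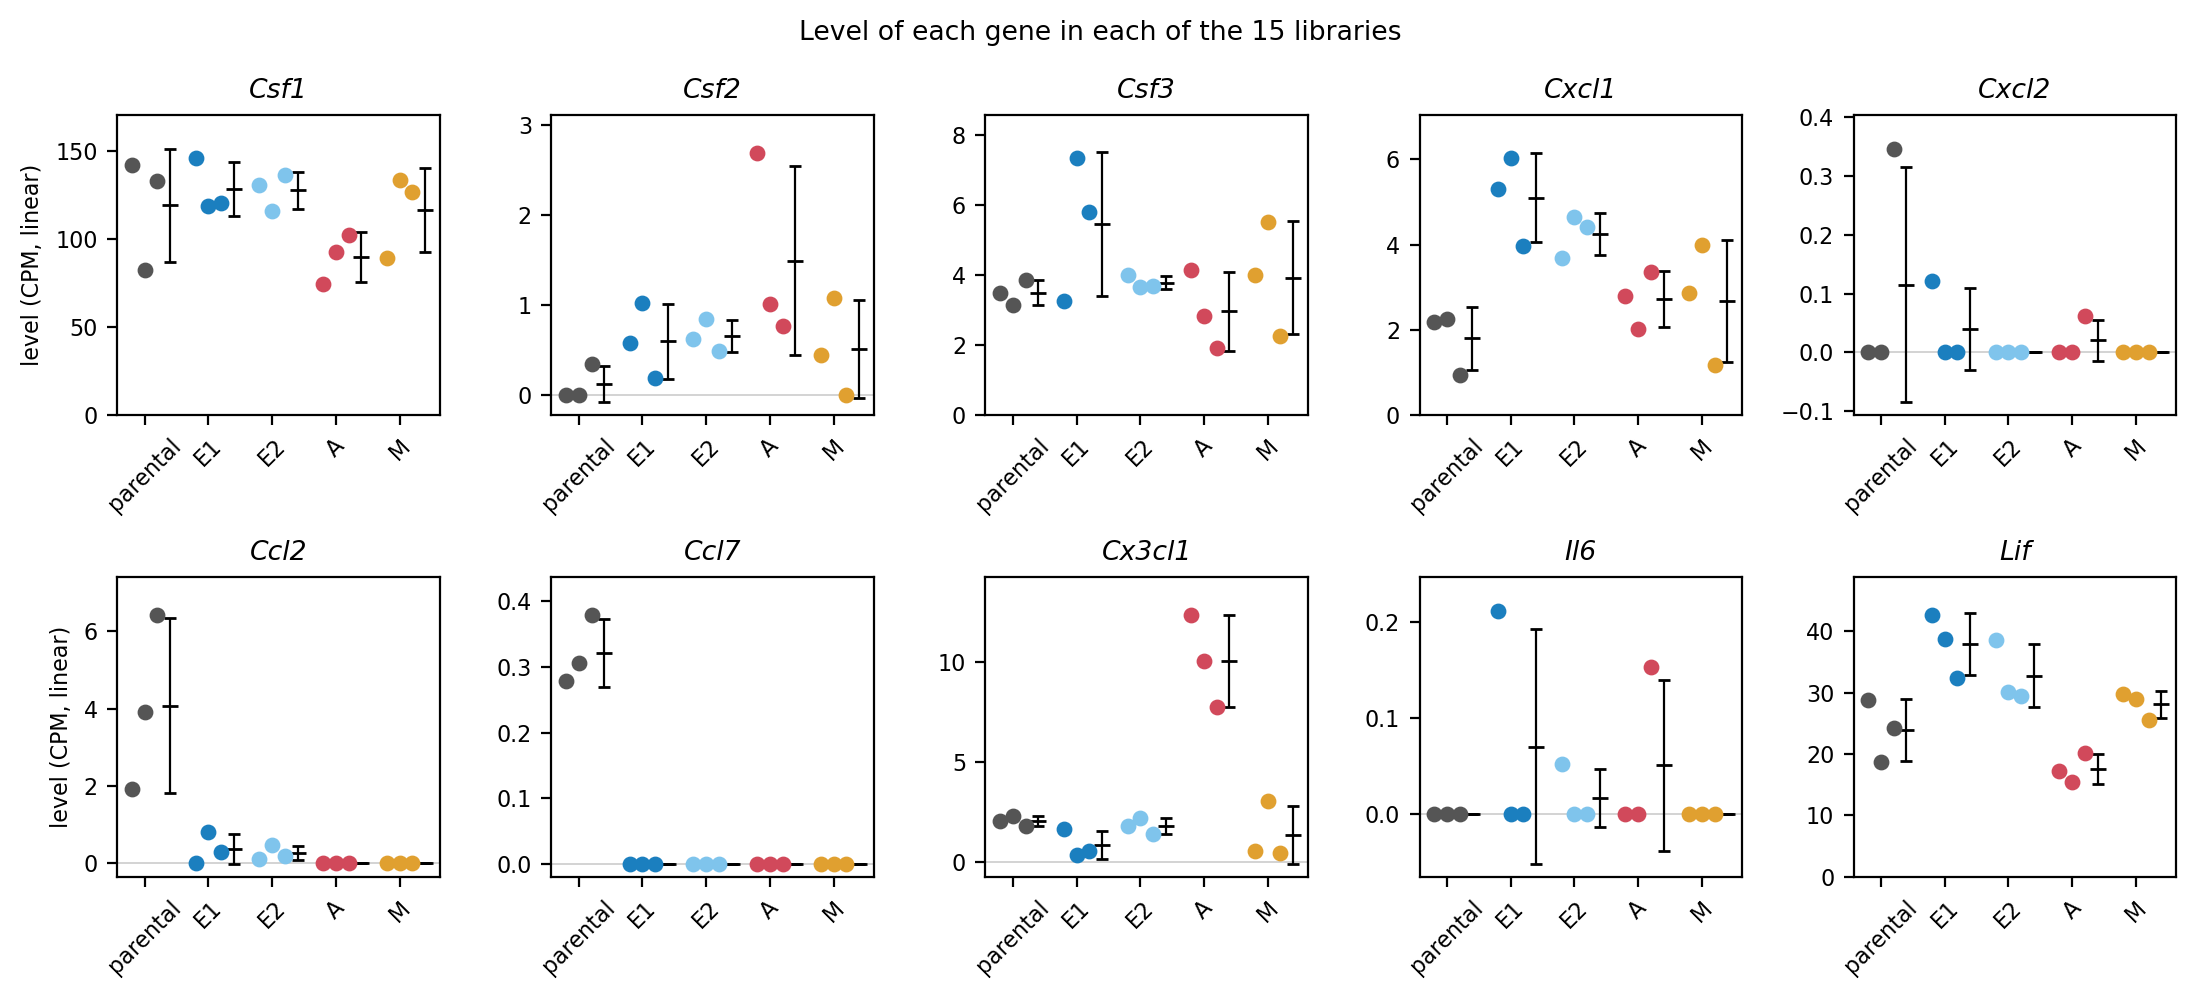
Level in CPM of each gene in each library, on a linear scale of its own per panel, with the mean and SD of the 3 libraries beside the points. For Ccl2 the parental libraries hold 347 of the 394 counts, Ccl7 has counts in the parental libraries alone, and the 3 A libraries stand above all others for Cx3cl1.

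Compared with the parental population, 3 of the 7 tested members were called for E1, 2 for E2, 3 for A and 1 for M, by edgeR's quasi-likelihood test at a Benjamini-Hochberg adjusted p under 0.05. In E1, Cxcl1 and Lif were higher, where 7.77% of all tested genes were higher, and Ccl2 was lower, where 7.35% were. In E2, Cxcl1 was higher (9.14% of all genes) and Ccl2 lower (8.8%). In A, Csf2 and Cx3cl1 were higher (15.1% of all genes) and Ccl2 lower (14.9%). In M, Ccl2 was lower (6.28% of all genes), and no member was called higher, where 7.87% of all genes were. The median log2 fold change of the 7 was 0.63 for E1, 0.11 for E2, -0.24 for A and 0.17 for M, beside medians between -0.01 and 0.03 over all tested genes. The 4 comparisons share the same 3 parental libraries, so their results are not independent. Ccl2, called in all 4, was admitted to testing mainly through those libraries, so its calls add nothing to these counts beyond its own values. Biological replicates are 3 per population. P-values measure only the spread between replicates within populations, which was estimated from all 15 libraries and moderated over all tested genes.

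Between clones, 4 members were called between A and E1, where 29.6% of all tested genes were, and 4 between A and E2, where 22.4% were. M differed from A in 2 members (17.7% of all genes) and from E1 in 1 (3.89%). No member was called between E2 and E1 (0.236% of all genes), none at an unadjusted p under 0.05 and none by DESeq2. None was called between M and E2 (3.5% of all genes) by edgeR or DESeq2, with 1 at an unadjusted p under 0.05. Over all 5 populations at once, Cxcl1, Ccl2, Cx3cl1 and Lif were called, 4 of 7, against 40.9% of all tested genes. The 4 include Ccl2, which was admitted to testing mainly through its parental libraries.

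**Figure D4:**
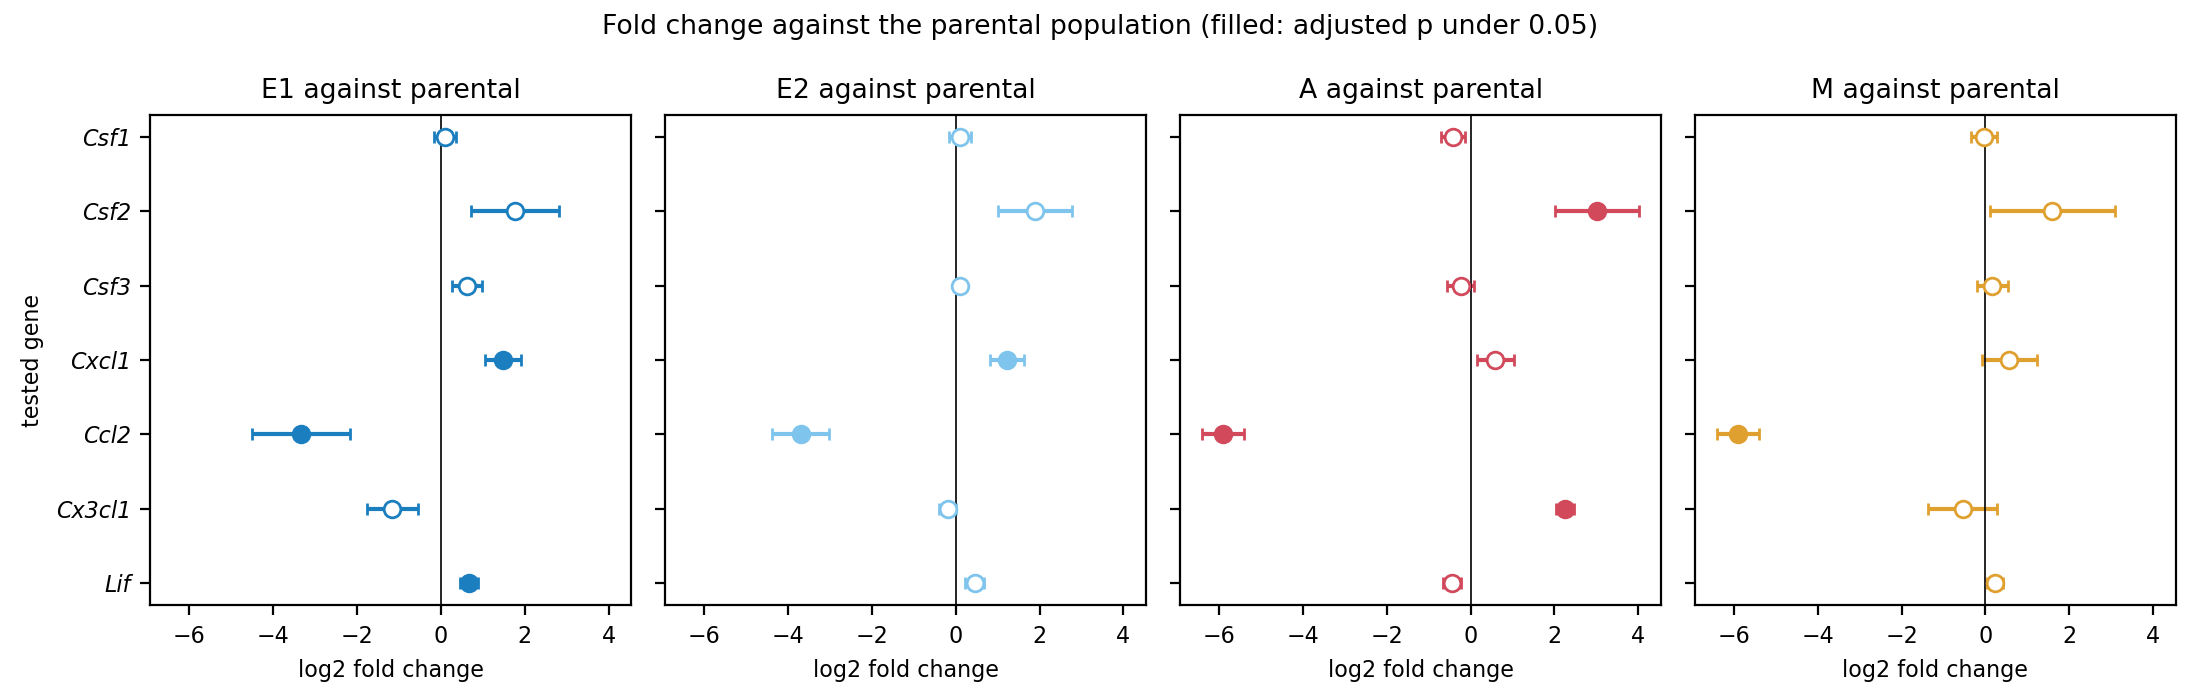
Log2 fold change against the parental population of the 7 tested genes, with bars of 1 SE, filled where the adjusted p was under 0.05. Ccl2 is filled in all 4 panels. Its points for A and M, where no count was found, rest on the prior count and are not fold estimates.

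Csf1 (Entrez 12977), which supports macrophages, lies on chromosome 3 at 107741048 to 107760469. Its level was 142, 82.7 and 133 CPM in the parental libraries, 146, 119 and 120 in E1, 131, 116 and 136 in E2, 74.2, 92.6 and 102 in A, and 89.3, 133 and 127 in M. The A libraries lay below all E1 and E2 libraries and overlapped the parental and M ranges. The log2 fold change of A was -0.52 against E1 (SE 0.167, adjusted p = 0.0314, edgeR) and -0.51 against E2 (SE 0.154, adjusted p = 0.043, edgeR). Against the parental population it was -0.41 (SE 0.282, adjusted p = 0.0876, edgeR). The call against E1 was lost without E1 replicate 1, A replicate 1 or A replicate 2, at an edgeR adjusted p of up to 0.161. The call against E2 was lost without E1 replicate 2, E1 replicate 3, E2 replicate 1, E2 replicate 3, A replicate 1 or A replicate 2, at up to 0.197, and without the pair of libraries with the highest share of the most counted gene, parental replicate 1 and E2 replicate 1 (0.0806). Without parental replicate 2, the lowest parental library, A was called below the parental population at an edgeR adjusted p of 0.0084.

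Csf2 (Entrez 12981), which encodes GM-CSF, lies on chromosome 11 at 54247270 to 54249899. It was at 0, 0 and 0.346 CPM in the parental libraries, 0.575, 1.02 and 0.189 in E1, 0.625, 0.838 and 0.486 in E2, 2.69, 1.01 and 0.769 in A, and 0.441, 1.08 and 0 in M. Its highest library was A replicate 1, with 81 of the 301 counts of the gene. The A libraries lay above all parental libraries and overlapped those of every other clone. Csf2 rose in A against the parental population by 3.02 on the log2 scale (SE 1.01, adjusted p = 0.0238, edgeR). That call was lost without parental replicate 1, parental replicate 2 or A replicate 1, at an edgeR adjusted p of up to 0.117, and without both parental replicate 1 and E2 replicate 1 (0.0944). It was also lost with the replicate number as a term of the fit. Its size moved to 4.49 without parental replicate 3 and to 2.32 without A replicate 1. Without parental replicate 3, which held all 11 parental counts, E1, E2 and M were called higher as well, at edgeR adjusted p values of 0.0333, 0.0258 and 0.0412. The difference over all 5 populations was not called (adjusted p = 0.14, edgeR), and at these counts the order of the clones could not be told.

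Csf3 (Entrez 12985), which encodes the neutrophil factor G-CSF, lies on chromosome 11 at 98700183 to 98703631. It stood at 3.48, 3.14 and 3.87 CPM in the parental libraries, 3.27, 7.34 and 5.80 in E1, 4.01, 3.67 and 3.68 in E2, 4.15, 2.84 and 1.91 in A, and 4.01, 5.51 and 2.27 in M. The populations overlapped throughout, and no pair was called. The largest difference was that of A against E1, -0.86 on the log2 scale (SE 0.466, adjusted p = 0.0628, edgeR). It was called without E1 replicate 1, A replicate 1 or M replicate 3, at edgeR adjusted p values of 0.0259, 0.0294 and 0.045.

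Cxcl1 (Entrez 14825), a neutrophil chemoattractant, lies on chromosome 5 at 90891245 to 90893121. Its level was 2.18, 2.26 and 0.945 CPM in the parental libraries, 5.30, 6.04 and 3.97 in E1, 3.70, 4.64 and 4.41 in E2, 2.79, 2.02 and 3.35 in A, and 2.86, 3.99 and 1.17 in M. All 6 libraries of E1 and E2 lay above all parental and all A libraries. Against the parental population Cxcl1 rose by 1.48 in E1 (SE 0.43, adjusted p = 0.011, edgeR) and by 1.23 in E2 (SE 0.404, adjusted p = 0.03, edgeR), on the log2 scale. The values for A and M were 0.59 (SE 0.443, adjusted p = 0.269) and 0.57 (SE 0.645, adjusted p = 0.366), both by edgeR. Leaving out parental replicate 3 or E1 replicate 2 ended the E1 call, at an edgeR adjusted p of up to 0.0737. The E2 call was lost without parental replicate 3, E2 replicate 2 or E2 replicate 3, at up to 0.153. A against E1, at -0.89 (adjusted p = 0.0824, edgeR), was called without M replicate 3 (adjusted p = 0.0461).

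Cxcl2 (Entrez 20310), the close relative of Cxcl1 that shares its receptor, starts 10.778 kb beyond the end of Cxcl1, at 90903899 to 90905938 on chromosome 5. It had 17 counts in all: 11 in parental replicate 3, 4 in E1 replicate 1 and 2 in A replicate 3. Every library of E2 and M had none. It was too low to test, and no population could be told from another at this depth. The 2 genes have the same number of NF-kB motif matches, and Cxcl1 had 1435 counts over the same libraries. Their merged exons are of similar length, 1875 bases for Cxcl1 and 2068 for Cxcl2. The neighbouring genes Cxcl3, Cxcl5 and Ppbp had 197, 3143 and 159 counts, and Pf4 and Cxcl15 none, so 5 of the 7 genes of this 146.641 kb cluster had counts. Cxcl1, Cxcl2 and Cxcl3 are similar in sequence, and how reads shared between them were counted is not given in the sources used here.

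Ccl2 (Entrez 20296), the main monocyte chemoattractant, lies on chromosome 11 at 82035577 to 82037452 and separated the parental population from every clone. It stood at 1.90, 3.90 and 6.42 CPM in the parental libraries, 0, 0.790 and 0.284 in E1, and 0.104, 0.454 and 0.182 in E2. All 6 libraries of A and M had no count. Every parental library lay above every clone library. The 3 parental libraries held 347 of the 394 counts. In E1 the level fell by 3.33 on the log2 scale (SE 1.18, adjusted p = 0.013, edgeR), and in E2 it fell by 3.69 (SE 0.684, adjusted p = 0.00614, edgeR). With a floor of 3 counts over the population, the level was at least 127-fold lower in A (edgeR adjusted p = 4.21e-05) and at least 128-fold lower in M (edgeR adjusted p = 0.000133). With 1 library left out the bounds were lowest at 82.6-fold for A, without A replicate 3, and 72.8-fold for M, without M replicate 2. These bounds account for counting error alone, and since the reads carry no molecular identifiers they do not count separate molecules.

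Ccl2 passed the filter on low counts through its parental libraries: the cutoff of 0.336 CPM was reached in those 3 and in 1 library each of E1 and E2. A gene admitted in that way had to be higher there, so its place among the called members supports nothing beyond its own values. The calls in A and M held under all 23 alternatives. Leaving out parental replicate 3 or E1 replicate 3 ended the E1 call (edgeR adjusted p of up to 0.104), and so did DESeq2 (adjusted p = 0.0642). Without E1 replicate 2, which held 17 of the 26 counts of E1, the E1 fold change was -4.33. The E2 call was lost without parental replicate 3 (edgeR adjusted p = 0.0572). Between clones, A was at least 11.1-fold below E1 (edgeR adjusted p = 0.00646) and at least 7.67-fold below E2 (edgeR adjusted p = 0.0159), though E1 replicate 1 was itself at 0. Without E1 replicate 2 the first bound was 4.41-fold, and without E2 replicate 2, with 13 of the 21 counts of E2, the second was 4.45-fold. The second call was lost without E2 replicate 2, A replicate 2 or A replicate 3, at up to 0.0641, and with only the populations compared (0.0542). M was at least 11.3-fold below E1 (edgeR adjusted p = 0.037), a call lost without parental replicate 3, E1 replicate 2, E1 replicate 3, E2 replicate 3 or any 1 library of M, at up to 0.184, and with only the populations compared (0.166). That bound was 4.46-fold without E1 replicate 2 and 6.39-fold without M replicate 2. M against E2 missed the threshold (edgeR adjusted p = 0.06) and was called without E1 replicate 1 (0.0244) and without E1 replicate 2 (0.045). That comparison was also called with the replicate number as a term of the fit.

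Ccl7 (Entrez 20306), a second ligand of Ccr2, begins 8.26 kb beyond Ccl2, at 82045712 to 82047525 on chromosome 11. It had 6, 8 and 12 counts in the parental libraries, a mean of 0.321 ± 0.0513 CPM (SD, n = 3). None of the 12 clone libraries had a count. Against the same floor it was at least 9.23-fold lower in E1, 8.64-fold in E2, 9.98-fold in A and 10.1-fold in M, and with 1 library left out these bounds fell to as low as 5.69, 5.12, 6.50 and 5.73-fold. It was not tested with the filter. Without a filter, no pair passed the threshold (edgeR adjusted p of 0.102 to 0.161 against the parental population), and the test over all 5 populations did (edgeR adjusted p = 0.0153). Ccl11, Ccl12, Ccl8 and Ccl1, the other 4 genes of this 144.236 kb cluster, had no count in any library. No other tested gene lay within 500 kb of Ccl2.

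Cx3cl1 (Entrez 20312), also called fractalkine, lies on chromosome 8 at 94772180 to 94782427 and set A apart from the other 4 populations. Its level was 12.4, 10.1 and 7.78 CPM in A, 2.04, 2.33 and 1.83 in the parental libraries, 1.66, 0.372 and 0.568 in E1, 1.82, 2.20 and 1.40 in E2, and 0.573, 3.04 and 0.453 in M. The lowest A library was above every library of the other populations. On the log2 scale A was higher by 2.25 against the parental population (SE 0.216, adjusted p = 0.00318, edgeR), by 3.40 against E1 (SE 0.621, adjusted p = 0.00012, edgeR) and by 2.44 against E2 (SE 0.265, adjusted p = 0.00265, edgeR). M against A was -2.79 (SE 0.835, adjusted p = 0.00124, edgeR). All 4 calls held under all 23 alternatives, though 2 of the sizes moved: A against E1 was 4.22 without E1 replicate 1, and M against A was -4.12 without M replicate 2. M replicate 2 stood apart from the other M libraries, and without it M was called below the parental population (edgeR adjusted p = 0.0103) and below E2 (edgeR adjusted p = 0.0352). E1, at -1.16 against the parental population (SE 0.599, adjusted p = 0.17, edgeR), was called lower without E1 replicate 1 (0.0252) or M replicate 2 (0.0414).

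Pdgfra, listed as a fibroblast marker, moved with Cx3cl1, and its part in the result was not tested. It was at 26.4 ± 6.61 CPM in A and 7.13 ± 0.333 in the parental population (SD, n = 3; log2 fold change 1.88, adjusted p = 4.49e-05, edgeR). The other 7 fibroblast markers summed to at most 0.199 CPM in the A libraries. Of the sheddases, which release membrane-bound ligands, 3 of 6 were higher in A and 1 lower (15.1% and 14.9% of all tested genes), and 1 of the 3 higher calls remained without parental replicate 2. Adam10, which cleaves Cx3cl1, was at 184 ± 16.0 CPM in A and 94.6 ± 20.6 in the parental population (log2 fold change 0.96, adjusted p = 8.39e-05, edgeR). In M, Adam9 was higher (129 ± 24.6 against 81.6 ± 6.43 CPM, adjusted p = 0.00375, edgeR). Cx3cr1, the receptor, was near zero in all populations, at most 0.351 CPM in A.

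Il6 (Entrez 16193), a gp130 cytokine, lies on chromosome 5 at 30013114 to 30019975. It had 13 counts in all 15 libraries: 7 in E1 replicate 1, 1 in E2 replicate 1 and 5 in A replicate 3. The parental population and M had none, and the other libraries of E1, E2 and A were also at 0. Its highest library was at 0.212 CPM. No difference was detectable at this depth.

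Lif (Entrez 16878), the other gp130 cytokine, lies on chromosome 11 at 4257568 to 4272514. Its level was 28.8, 18.7 and 24.2 CPM in the parental libraries, 42.5, 38.7 and 32.4 in E1, 38.6, 30.1 and 29.4 in E2, 17.2, 15.4 and 20.2 in A, and 29.8, 28.9 and 25.6 in M. The E1 and E2 libraries all lay above the parental ones, and the A libraries below all those of E1, E2 and M. Lif rose in E1 by 0.66 on the log2 scale (SE 0.214, adjusted p = 0.011, edgeR), a call that ended when parental replicate 2 or E1 replicate 1 was left out (edgeR adjusted p of up to 0.0737). E2, at 0.45, and A, at -0.44, did not pass against the parental population (adjusted p = 0.0754 and 0.0613, edgeR). E2 was called without parental replicate 1 (0.0377). A was called lower without parental replicate 2, E2 replicate 1, A replicate 3 or M replicate 3 (0.0176 to 0.0483). With the replicate number as a term of the fit, E2 was called higher and A lower. A was lower than E1 by a log2 fold change of -1.10 (SE 0.162, adjusted p = 2.84e-05, edgeR) and lower than E2 by -0.89 (SE 0.169, adjusted p = 0.000566, edgeR), and both calls held under all 23 alternatives. M was above A by 0.67 (SE 0.132, adjusted p = 0.00857, edgeR), a call lost without A replicate 2 (0.0562).

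Of 17 receptor genes 9 had no count in any library, among them Csf2ra, Csf3r, Cxcr2 and Ccr2. Csf1r reached at most 0.238 CPM as a population mean. Only Il6ra, Il6st and Lifr could be tested. Il6st, the gp130 chain, was lower in all 4 clones, with means of 81.7 ± 1.503 CPM for E1, 85.0 ± 13.2 for E2, 89.2 ± 14.99 for A and 87.4 ± 8.89 for M, against 125 ± 21.1 in the parental population (SD, n = 3; edgeR adjusted p of 0.00845 to 0.0259). The E1 call was kept without any single library. The E2 call was lost without parental replicate 1 or E2 replicate 2 (edgeR adjusted p of up to 0.0816) and with only the populations compared (0.0528). The A call was lost without parental replicate 1 or 3 or A replicate 1 or 2 (up to 0.102), and the M call without parental replicate 1 or 3 or M replicate 1 or 2 (up to 0.114) and with only the populations compared (0.0565). Without both parental replicate 1 and E2 replicate 1 the calls in E2, A and M were all lost (0.0529 to 0.0944). Il6ra was higher in A, at 13.6 ± 3.11 against 5.31 ± 1.13 CPM (adjusted p = 0.000859, edgeR). Lifr, the LIF receptor, was named after its values were seen: it was at 1.08 ± 0.484 CPM in the parental population, 1.40 ± 0.169 in A, 0.165 ± 0.143 in E1, 0.0347 ± 0.0601 in E2 and 0.0163 ± 0.0283 in M. It was called lower in E2 and M (adjusted p = 0.00524 and 0.00357, edgeR). In E1, where it was also near zero, it was not called by edgeR, and DESeq2 called 2 receptors lower in E1 in place of 1. Lifr was over near zero only in the parental population and A, so it passed the filter mainly through the groups where it was high.

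Of 16 genes of the gp130, JAK and STAT3 pathway, 3 were higher and 1 lower in A, 2 and 2 in E2 and in M, and 1 and 2 in E1. These are 18.8% higher and 6.25% lower of the list in A, beside 15.1% and 14.9% of all tested genes. In E2 and M they are 12.5% in each direction, beside 9.14% and 8.8% for E2 and 7.87% and 6.28% for M, and in E1 6.25% and 12.5%, beside 7.77% and 7.35%. With at most 3 genes in any count, the shares do not set the list apart. The median log2 fold changes were between -0.10 and 0.33. The count of 3 higher in A held without any single library, and the other counts moved by up to 2 genes, with parental replicates 1 and 3 among the libraries that moved them. Jak2, a kinase bound to these receptors, was at 58.5 ± 0.994 CPM in the parental population, 174 ± 19.8 in A and 125 ± 17.9 in M (edgeR adjusted p = 2.28e-08 and 1.5e-05). In E2 it was also called higher, at 82.6 ± 13.9 CPM (adjusted p = 0.0237, edgeR). The count of 2 higher genes in E2 fell to 1 without E2 replicate 3 or parental replicate 3. Pias3, an inhibitor of STAT3, was higher in all 4 clones, at 4.24 to 6.47 CPM against 1.66 (edgeR adjusted p of 0.000124 to 0.00971), with the M call lost without parental replicate 3 or M replicate 3 (up to 0.0706) and with only the populations compared (0.0515). Pim1, a STAT3 target, was higher in A, at 11.1 ± 1.95 against 4.91 ± 1.19 CPM (adjusted p = 0.00152, edgeR).

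Of 22 NF-kB subunits and regulators, 10 were lower in A and 1 was higher, 45.5% and 4.55% of the list beside 14.9% and 15.1% of all tested genes. The median log2 fold change of the list was -0.56 for A, 0.19 for E1, 0 for E2 and -0.01 for M. The count of 10 moved between 9 and 11 with a single library left out. Relb, an NF-kB subunit, was at 2.77 ± 0.683 CPM in A and 6.45 ± 1.31 in the parental population (log2 fold change -1.20, adjusted p = 0.0032, edgeR). Tnip1, a regulator of the pathway, was lower in A and in M (adjusted p = 0.00139 and 0.00032, edgeR). Tnfaip3, which encodes the inhibitor A20, was the exception and was higher in all 4 clones, at 69.0 ± 4.98 CPM in E1 and 69.0 ± 6.01 in E2 against 29.1 ± 8.85. In E1 and in E2, 3 genes of the list were higher (13.6%, beside 7.77% and 9.14% of all tested genes), falling to 1 without E1 replicate 2 and without E2 replicate 3. In M, 1 was higher and 3 lower (4.55% and 13.6%, beside 7.87% and 6.28%), and the second count fell to 1 without M replicate 1, M replicate 3 or parental replicate 3.

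Among 32 other chemokine genes 16 had no count in any library and 8 could be tested. Cxcl16, which like Cx3cl1 is made in a membrane-bound form, was lower in A, where Cx3cl1 was higher. It was at 6.88 ± 1.66 CPM in A, 21.6 ± 3.10 in the parental population, 40.3 ± 5.70 in E1, 30.6 ± 1.57 in E2 and 22.8 ± 1.20 in M. Against the parental population its log2 fold change was -1.64 in A (adjusted p = 1.19e-07, edgeR), 0.89 in E1 (0.000814) and 0.50 in E2 (0.0461). The E2 call was lost without any 1 library of E1 or E2, parental replicate 1 or 2, A replicate 3, or M replicate 2 or 3 (edgeR adjusted p of up to 0.147), with only the populations compared (0.0711), when no gene was filtered out (0.0743), with RLE size factors (0.0522) and without both parental replicate 1 and E2 replicate 1 (0.132). Ccl20, named after its values were seen, was the second chemokine called higher in E1 and E2, as Cxcl10 was the second called lower in A. Both were low: Ccl20 was at 3.37 ± 0.123 CPM in E1 and 2.77 ± 1.31 in E2 against 0.756 ± 0.824 (adjusted p = 0.02 and 0.0374, edgeR). Cxcl10 was at 0.331 ± 0.415 CPM in A against 2.02 ± 1.15 (adjusted p = 0.0418, edgeR). Each count of 2 is 25% of the tested genes of the list, beside 7.77%, 9.14% and 14.9% of all tested genes. The count of 2 in E1 fell to 1 without E1 replicate 2 or 3 or parental replicate 1 or 2, and that in E2 to 0 without E2 replicate 2 or 3 or parental replicate 1 or 2. That in A fell to 1 without A replicate 2 or 3 or parental replicate 3.

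Of 40 other cytokine genes 18 could be tested, and 7 were higher and 3 lower in A, 38.9% and 16.7% of them beside 15.1% and 14.9% of all tested genes. The higher genes include Il33, Il11, Tnfsf10 and Il1a, named after their values were seen. These were near zero in the parental population, at 0, 0.147, 0.212 and 0.366 CPM. Such genes can pass the filter through clone libraries alone, so the filter itself favours a higher call, and the share supports nothing beyond their own values. The count of 7 stayed between 7 and 8 with 1 library left out, and the count of 3 fell to 1 without A replicate 3 or parental replicate 1. The counts of higher genes were 3 in E1, 4 in E2 and 4 in M (16.7%, 22.2% and 22.2%, beside 7.77%, 9.14% and 7.87% of all tested genes), and that of E2 fell to 2 without E2 replicate 2, E2 replicate 3, parental replicate 1 or parental replicate 3. Tslp, an epithelial cytokine, was at 20.4 ± 2.21 CPM in A against 3.62 ± 1.09 (log2 fold change 2.46, adjusted p = 1.19e-07, edgeR). It was also higher in E1, at 8.64 ± 1.20 CPM (log2 fold change 1.23, adjusted p = 0.00213, edgeR). Il24 was higher in E1, at 9.44 ± 0.825 against 1.80 ± 0.620 CPM, and also in E2 and M, and lower in A (edgeR adjusted p of 6.29e-05, 0.000852, 0.00463 and 0.043). The M call of Il24 was lost without M replicate 2 (log2 fold change 0.88 in place of 1.49, adjusted p = 0.092, edgeR). The A call ended on leaving out parental replicate 1 or 3, E1 replicate 3, E2 replicate 3 or any 1 library of A (up to 0.232), with only the populations compared (0.145) and without both parental replicate 1 and E2 replicate 1 (0.0537). Kitl, the ligand of the receptor Kit, was higher in M, at 124 ± 11.6 CPM, in A, at 88.7 ± 8.06, and in E2, at 63.6 ± 23.1, against 39.9 ± 11.6 (edgeR adjusted p of 3.44e-05, 0.00044 and 0.0376). In E1, at 60.3 ± 8.05 CPM, it was not called (adjusted p = 0.0745, edgeR). Leaving out parental replicate 1 or 3, E1 replicate 1 or 2, E2 replicate 2 or 3, or M replicate 3 ended the E2 call of Kitl (edgeR adjusted p of up to 0.218), as did fitting only the populations compared (0.0814). The inducers Tnf and Il1b were near zero in all 5 populations.

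Of 13 factors that bind or degrade cytokine mRNAs, 1 was higher in E1 and 1 in A, 7.69% of the list in each, beside 7.77% and 15.1% of all tested genes. The first was Khsrp, at 103 ± 7.57 CPM against 75.5 ± 10.8 (adjusted p = 0.0498, edgeR), named after its values were seen. It was lost without any of 9 single libraries and with RLE size factors. The second was Zfp36l1, which binds AU-rich elements, at 37.3 ± 5.43 CPM in A against 23.8 ± 4.52 (adjusted p = 0.0156, edgeR). It was not kept without A replicate 3 or parental replicate 1. Of the 10 epithelial markers, E1 had 7 higher than the parental population, E2 6, A 5 and M 8 (7.77%, 9.14%, 15.1% and 7.87% of all tested genes), and A had 2 lower and M 1 (14.9% and 6.28%). The higher ones include Krt8, at 202 ± 9.72 CPM in A against 59.4 ± 4.82 in the parental population. Esrp1 and Cldn3 were higher in E1, E2 and M and not called in A. Cdh1 and Cldn7 were named after their values were seen. Cdh1 was lower in A, at 22.4 ± 3.31 CPM, and in M, at 36.3 ± 8.16, against 68.2 ± 12.9 (adjusted p = 9e-07 and 0.00225, edgeR). Cldn7 was lower in A and higher in M (adjusted p = 0.0329 and 0.0447, edgeR). The part of these markers in the cytokine differences was not tested.

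The genes whose levels followed 6 of the members most closely over the 15 libraries are given as a description, since the points share library and depth. Senp1 had a Pearson r of 0.951 with Lif, Shank1 of 0.928 with Cx3cl1 and Naf1 of 0.919 with Ccl2. For Csf2 it was Donson (0.918), for Csf1 Pitrm1 (0.894) and for Csf3 Pomp (0.830).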

How the data were processed

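RNA sequencing of 15 libraries, 3 per population, was made with a directional kit, per the labels' protocols. The deposited files give raw counts per Entrez gene. Per the submitters' processing notes the tools were HISAT2, featureCounts and DESeq2, with the builds GRCm38 and mm10. Versions and the strand setting of the counting are not given in the sources used here, so reads of overlapping genes and of near-copies such as Cxcl1, Cxcl2 and Cxcl3 may be shared. Identifiers were named with a RefSeq table of GRCm38.p6, which named 25275 of 27179.

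Counts were analysed with R 4.3.3 and edgeR 4.0.16: filterByExpr (minimum count 10, minimum total 15), TMM factors of 0.847 to 1.11, and a robust quasi-likelihood fit of all 15 libraries with the population as its only term. It was applied to 10 pairs and to any difference among the 5 populations. P-values were adjusted by Benjamini-Hochberg over 12712 genes in each comparison. The prior count was 2, and the SE came from the SD of log2 CPM. No 2 libraries were identical. A population without a count was given a floor of 3 counts. On simulated counts for A against the parental population the script was tested on the same number of genes. Members and gene lists were chosen with earlier results of these data known. All 10 members are described. From each list, genes called over the 5 populations with at least 5 CPM in the highest population were named, at most 3 per list by fold change, and for each tested member the gene most alike by correlation, with 1 of these not reported here. Alternatives were RLE size factors, no filter, a filter of 1 CPM in 3 libraries, DESeq2 1.42.0, only the populations compared, a replicate block, totals without the 6 most counted genes and each library left out. The set without the 2 libraries with the highest share of the most counted gene was added after the data were seen. The deposited tables of normalized values and of the authors' own comparison were not used here.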

Additional observations from a re-analysis of the deposited data

How the results depend on the processing

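Of the 20 member calls in the 10 pairs, 9 were kept under all 23 alternatives, 11 were lost under at least 1, and 0 changed sign. With no filter on low counts, all genes called between E2 and E1 came to 128, between M and E1 to 817 and between M and E2 to 790, members called between M and E2 to 1 and over the 5 populations to 7. DESeq2 called 128 genes between E2 and E1 and 734 between M and E2. With only the populations compared, 0 members were called between M and E1 and 196 genes between M and E2. Without the 2 libraries with the highest share of the most counted gene (parental replicate 1 and E2 replicate 1), 1451 genes were called between E2 and the parental population and 64 between E2 and E1.

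With single libraries left out, members called ranged over 1 to 3 for E2 and 1 to 2 for M against the parental population, 0 to 1 for M against E1 and against E2, 2 to 4 for A against E2, and 1 to 2 for M against A. All genes called ranged over 1087 to 2098 for E1 and 1162 to 2028 for M against the parental population, 9 to 46 for E2 against E1, 213 to 824 for M against E1, 209 to 731 for M against E2, and 1490 to 2451 for M against A. The cause was not tested.

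The replicate numbers were not taken as pairs in the main fit, so its p-values leave out any structure shared by same-numbered libraries. Deviations of 30 same-numbered pairs of libraries correlated at -0.058 to 0.213, with 4 over 0.1, and 13 of 15 libraries correlated best with their own number. The median was 0.054, beside -0.029 for pairs with different numbers, so same-numbered libraries were somewhat more alike. The labels give the number only as a biological replicate, so whether it marks a shared preparation could not be told. With the replicate block, 68 genes were called between E2 and E1, 699 between M and E2, and 1 member between M and E2. It ended the call of Csf2 in A against the parental population (edgeR adjusted p = 0.0529) and gave calls for Ccl2 between M and E2 (0.0277) and for Lif in E2 (0.045) and A (0.0457) against the parental population. Calls missed with the filter were made without it for Csf1 in A (0.0286) and Cx3cl1 in E1 (0.0304) against the parental population, Csf3 between A and E1 (0.0458) and Ccl2 between M and E2 (0.00221), and with a filter of 1 CPM for Lif in A (0.0433). With only the populations compared, Csf3 (0.0468) and Cxcl1 (0.0272) were called between A and E1. RLE size factors moved the CPM by 0.990 to 1.01 times. Depth limits Cxcl2, Ccl7, Il6 and Csf2, which had 17, 26, 13 and 301 counts in all.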

Other observations

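The genes around Cx3cl1 moved in both directions in A. Of 15 tested genes within 500 kb, 3 were called higher and 5 lower in A against the parental population by edgeR. Among all tested genes 15.1% were higher and 14.9% lower. This window was chosen after the values were seen, and it was not tested as a set. Coq9, 66.233 kb away, had a log2 fold change of -1.63 in A (adjusted p = 2.95e-05, edgeR), beside 2.25 for Cx3cl1. Its fall was not particular to A: it was -1.62 in E1, -1.54 in E2 and -1.02 in M (edgeR adjusted p of 0.000119 to 0.00789). 

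Il1a, an alarm cytokine that was too low to be named by the rule and was chosen after its values were seen, was near zero in the parental population, at 0.366 ± 0.445 CPM (SD, n = 3). In E2 it was at 1.15 ± 0.0943 and not called (adjusted p = 0.054, edgeR). It was at 1.40 ± 0.578 in E1, 3.05 ± 1.23 in A and 4.93 ± 2.00 in M, these 3 called higher (edgeR adjusted p of 0.0251, 0.000243 and 7.23e-05). For E1, leaving out parental replicate 1, parental replicate 3 or E1 replicate 1 ended it, with an edgeR adjusted p of up to 0.131, as did fitting only the populations compared (0.104) and leaving out both parental replicate 1 and E2 replicate 1 (0.0976).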
